A study of Homo sapiens with 42 samples.

Results

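Late lost loops are the chromatin loops of K562 cells that kept their contact level for 6 h of phorbol ester treatment and had fallen by 72 h. They were chosen from the measured contacts. Contact counts of 33914 deposited loops were summed into 12 libraries, the 22795 loops with a mean of at least 10 contacts a library were kept, and each library was scaled to 1000000 contacts in the kept loops. A member had all 4 of its 72 h libraries below all 8 libraries of 0 h and 6 h. Its 72 h mean was at most 0.75 times its 0 h mean, and its 6 h mean was 0.87 to 1.15 times that mean. This selected 451 loops, or 1.98% of the kept loops, so the levels of the members across the 3 times are a description and support no test.

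The study followed K562, an established human leukemia cell line with an aneuploid genome, toward a megakaryocyte-like state under PMA (phorbol 12-myristate 13-acetate). All groups were unmodified K562 cells: the first was taken at 0 h, the second after 6 h and the third after 72 h in 25 nM PMA. In situ Hi-C joins DNA ends that lie close together in fixed nuclei, and a loop's count is the number of joined read pairs between its 10 kb anchors. Each time had 4 biological replicates, within 42 samples in all. K562 is 1 line, so the replicates carry 1 genotype. No expression or protein marker was measured in these libraries, so neither the cell line nor the differentiated state was checked against markers here. The 12 libraries held 736929 to 1472197 contacts in the deposited loops, of which 93.6% to 95.9% lay in the kept loops. Replicates 3 and 4 agreed within sampling noise at 0 h and at 72 h and were counted as 1 sample there in each mean ± SD, which leaves n = 3 at these times and n = 4 at 6 h. Ratios and percent changes between times are those of the rule, from the means over all 4 libraries of a time, and so differ a little from the quotients of these means ± SD. Libraries are listed below in the order of replicates 1 to 4.

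Loops form where the ring-shaped cohesin complex extrudes a chromatin fibre until CTCF, bound to its motif, holds it, and other loops bring enhancers to promoters. Cells that leave one program for another rebuild part of these contacts, and loops at genes of the old program can weaken. PMA activates protein kinase C, and K562 cells then stop dividing, lose erythroid features and take on megakaryocyte features. Bulk libraries cannot tell fewer cells with a contact from a weaker contact in every cell.

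Sequences are shown for 5 promoters at the ends of 3 members, because 2 of these loops have a gene start in both anchors, and in the other the promoter carries matches to the ETS motif, which is described with the other motifs at the end. Each is the 250 bases before the start of the gene in RefSeq (GRCh38.p14), read 5′ to 3′ on the strand of the gene. Capitals mark AP-1 (TGANTCA), GC box (GGGCGG) and ETS (CCGGAAGT) matches on either strand. OSGIN1 (chr16:83952990-83953239, plus strand) encodes a growth inhibitor induced by oxidative stress, and TAF1C (chr16:84187058-84187307, minus strand) a subunit of the RNA polymerase I factor SL1; loop29032 joins them.
OSGIN1: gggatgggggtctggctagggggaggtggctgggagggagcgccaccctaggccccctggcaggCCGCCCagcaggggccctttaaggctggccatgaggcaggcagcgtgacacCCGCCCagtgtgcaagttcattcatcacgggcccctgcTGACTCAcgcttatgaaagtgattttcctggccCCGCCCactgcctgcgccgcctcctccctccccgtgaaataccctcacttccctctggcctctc
TAF1C: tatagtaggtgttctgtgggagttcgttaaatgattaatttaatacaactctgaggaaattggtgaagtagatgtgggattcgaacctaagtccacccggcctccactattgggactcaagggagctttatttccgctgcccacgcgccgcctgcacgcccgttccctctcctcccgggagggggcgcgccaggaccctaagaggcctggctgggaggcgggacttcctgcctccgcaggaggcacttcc
GLYCTK (chr3:52289816-52290065, plus strand) encodes glycerate kinase, SEMA3G (chr3:52445104-52445353, minus strand) a secreted semaphorin, and loop5520 joins them.
GLYCTK: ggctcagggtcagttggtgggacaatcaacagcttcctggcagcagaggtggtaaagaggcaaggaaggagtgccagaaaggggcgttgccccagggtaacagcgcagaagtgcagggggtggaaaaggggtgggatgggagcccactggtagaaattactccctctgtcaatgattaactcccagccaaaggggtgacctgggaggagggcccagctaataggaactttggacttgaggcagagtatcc
SEMA3G: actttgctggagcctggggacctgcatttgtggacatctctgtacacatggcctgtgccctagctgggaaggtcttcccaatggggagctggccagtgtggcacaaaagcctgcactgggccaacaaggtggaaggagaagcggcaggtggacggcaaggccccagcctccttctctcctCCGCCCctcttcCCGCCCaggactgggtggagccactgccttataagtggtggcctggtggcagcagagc
YKT6 (chr7:44200728-44200977, plus strand) encodes a SNARE protein of vesicle fusion and lies at an end of loop16043.
YKT6: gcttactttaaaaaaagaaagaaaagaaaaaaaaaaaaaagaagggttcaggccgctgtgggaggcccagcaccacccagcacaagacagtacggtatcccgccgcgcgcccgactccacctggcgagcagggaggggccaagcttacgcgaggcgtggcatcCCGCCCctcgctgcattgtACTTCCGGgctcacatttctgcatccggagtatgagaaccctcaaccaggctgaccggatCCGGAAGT
The OSGIN1 sequence held 1 AP-1 match and 3 GC boxes, SEMA3G held 2 GC boxes, and YKT6 held 1 GC box and 2 ETS matches. TAF1C and GLYCTK held no match to these letters in this window.

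As a set the members had a median level of 55.2 scaled contacts at 0 h, 54.8 at 6 h and 35.9 at 72 h. The 0 h levels ran from 10.99 to 685. The members held 3.04% to 3.13% of the kept contacts in the 0 h libraries, 2.94% to 3.03% at 6 h and 2.02% to 2.08% at 72 h. The fall from 0 h to 72 h had a median ratio of 0.658, with the middle of the members between 0.591 and 0.703, and the lowest at 0.268. A ratio of 0.5 or less was reached by 31 members. At 6 h the median ratio was 0.976, with 170 members above their 0 h level and 281 below it. The median over all kept loops was 1.04 at 72 h and 1.03 at 6 h.

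**Figure D1:**
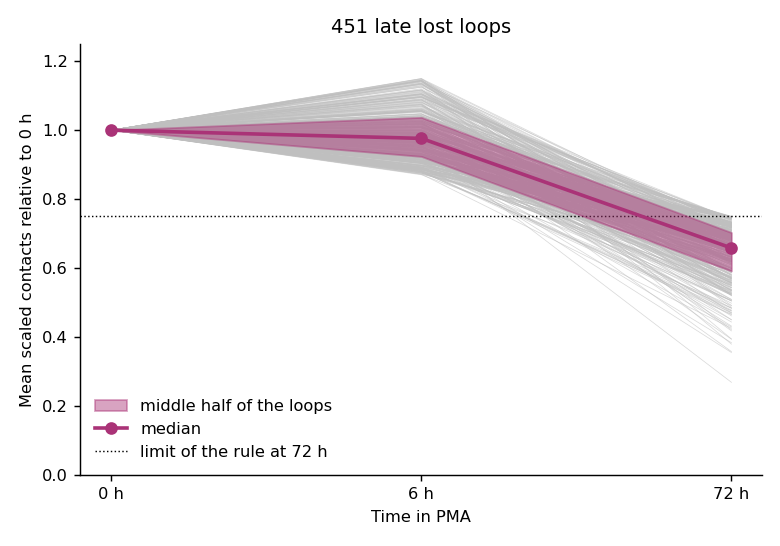
Mean scaled contacts of each of the 451 late lost loops relative to its own 0 h mean (vertical axis) at 0 h, 6 h and 72 h (horizontal axis). Grey lines are single loops, the band holds the middle of them between ratios of 0.591 and 0.703 at 72 h, the heavy line is the median (0.976 at 6 h, 0.658 at 72 h), and the dotted line is the rule's limit of 0.75.

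The fit of all loops gave the members' background. With edgeR's quasi-likelihood test at an adjusted p under 0.05, 438 of 451 members were called lost at 72 h against 0 h, beside 16.9% of all 24132 loops tested. Against 6 h, 402 members were called lost, beside 9.81% of the loops tested. At 6 h against 0 h, 0 members were called, beside 6.41% in either direction. All 3 contrasts were used to choose the members, so nothing is read from these counts. At an unadjusted p under 0.05, 16 members differed at 6 h, all lower, and 4908 of the 24132 loops did. DESeq2 called 0 of the 381 members it gave an adjusted p at 6 h, and 3 of 451 at an unadjusted p under 0.05. The median log2 fold change of the members was -0.66 at 72 h against 0 h, -0.60 at 72 h against 6 h and -0.08 at 6 h against 0 h. The fit used TMM and the rule used totals, so their scales were not centred alike. At 6 h against 0 h the median kept loop had a ratio of 1.03 by the rule and a log2 fold change of 0.01 in the fit. Over all loops, the calls at 6 h numbered 1546, or 709 without 0 h replicate 1 and 868 without 6 h replicate 2.

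Flat at 6 h was a measured range, not a proof of no change. Members had a median of 229 raw contacts over the 4 libraries at 0 h, 194 at 6 h and 146 at 72 h. By exact 95% intervals, which cover counting error only, the 6 h ratio of the middle member lay between 0.802 and 1.20. The 6 h interval held 1 in 441 members, lay below 1 in 10 and above 1 in 0. It allowed a ratio of 0.75 or less, the limit of the rule at 72 h, in 97 members, and it reached down to the member's own 72 h ratio in 3. Members with fewer contacts had lower ratios: the median was 0.583 in the 104 members with a mean raw count under 30 and 0.676 in the other 347. The rule used these same counts, so nothing about weak loops in general is read from this.

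Replicates 1 and 2 had 3 technical replicates each, and replicates 3 and 4 had 2 that were each sequenced in 2 runs. Within replicates 1 and 2 the median ratio of the members was 0.647 at 72 h and 0.978 at 6 h. Replicates 3 and 4 gave 0.665 and 0.975. The 72 h ratio was 0.75 or less in 396 members within replicates 1 and 2 and in 375 within replicates 3 and 4. The labels name no batch, and this division was drawn from the technical replicates and runs. At 6 h the ratio stayed within the rule's band in 327 and 334 members, and in both divisions in 231. The extremes at 6 h were 0.675 and 1.43 within replicates 1 and 2 and 0.673 and 1.76 within replicates 3 and 4. The rule used all 12 libraries, so both divisions had to show the fall. Their values describe the selection and do not replicate it.

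The edges of the rule cut through a continuous range. Just inside the 72 h limit were loop15437 at a ratio of 0.74989 and loop32591 at 0.74927, and just outside were loop20067 at 0.75088 and loop28112 at 0.75235. At the lower bound of the 6 h band, loop19545 (an end of TRIM14) at 0.87051 and loop20842 (an end of CPN1) at 0.87218 were members. The neighbours loop20974 at 0.86991 and loop31078 at 0.86840 were not. At the upper bound, loop21694 at 1.14969 and loop16510 at 1.14965 were inside, and loop29057 at 1.15079 and loop23656 at 1.15229 outside. With all other conditions met, 189 loops were left out by the 72 h limit, 181 by the lower bound of the 6 h band and 84 by its upper bound. Of all kept loops, 4.14% had every 72 h library below every other library.

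Among members with a mean of at least 30 raw contacts, the lowest ratio belonged to loop2965, which joined chr1:224120001-224130000 and chr1:224450001-224460000 over 330 kb. No protein-coding gene ended in either anchor, and 5 lay between them. Its libraries held 53.9, 56.3, 40.5 and 67.6 scaled contacts at 0 h, 45.9, 40.02, 68.6 and 48.4 at 6 h and 18.9, 20.7, 29.05 and 24.96 at 72 h. The 6 h libraries were as spread as those of 0 h, and all 72 h libraries lay well below both. Its mean was 54.8 ± 1.36 (SD, n = 3) at 0 h, 50.7 ± 12.4 (SD, n = 4) at 6 h and 22.2 ± 4.26 (SD, n = 3) at 72 h. The SD at 0 h is small because replicates 3 and 4, the lowest and highest there, were averaged into 1 sample. The ratio of the 4-library means of 72 h and 0 h was 0.429. On chromosome 17, near the end of the long arm, loop30112 joined chr17:83010001-83020000 and chr17:83190001-83200000. It held 39.04, 53.5, 39.3 and 43.9 at 0 h, 51.9, 52.7, 34.3 and 36.3 at 6 h and 21.6, 17.6, 17.2 and 19.4 at 72 h, a ratio of 0.432. Here the 6 h libraries parted, with replicates 1 and 2 above replicates 3 and 4, while the 72 h libraries lay together. The third, loop4502 on chromosome 2, held 41.2, 42.97, 34.4 and 37.2 at 0 h, 37.9, 41.97, 38.6 and 30.2 at 6 h and 17.1, 17.6, 20.4 and 13.9 at 72 h, and its ratio was 0.443.

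The next 3 of these members had genes at an anchor. One anchor of loop21423 (chr11:11960001-11970000) held an end of DKK3, which encodes a secreted Dickkopf family protein, and of USP47, which encodes a deubiquitinase; the other anchor lay at chr11:11790001-11800000. Its libraries held 68.1, 63.98, 45.4 and 64.2 at 0 h, 71.9, 60.5, 51.5 and 53.2 at 6 h and 26.97, 26.96, 34.4 and 23.1 at 72 h. No gene lay wholly between the anchors, and the 72 h mean was 53.9% below that of 0 h. The anchor chr11:69640001-69650000 of loop22043 held an end of CCND1, which encodes cyclin D1, a driver of entry into the cell cycle. Its other anchor lay 540 kb away at chr11:69100001-69110000. The libraries held 64.6, 55.4, 46.6 and 56.3 at 0 h, 41.9, 50.8, 47.2 and 56.8 at 6 h and 28.8, 22.8, 19.4 and 35.1 at 72 h. Its mean fell by 52.4% from 0 h to 72 h and its 6 h ratio of 0.882 was close to the lower bound of the band. In loop2224, the anchor chr1:160370001-160380000 held an end of NHLH1, which encodes a basic helix-loop-helix transcription factor. The loop held 49.7, 52.5, 52.8 and 58.6 at 0 h, 48.9, 53.7, 54.3 and 43.5 at 6 h and 27.9, 23.9, 22.6 and 27.7 at 72 h, a narrower spread at 0 h and 6 h than in the other 2 loops, with means of 52.6 ± 2.99 (SD, n = 3), 50.1 ± 5.01 (SD, n = 4) and 25.6 ± 2.05 (SD, n = 3).

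**Figure D2:**
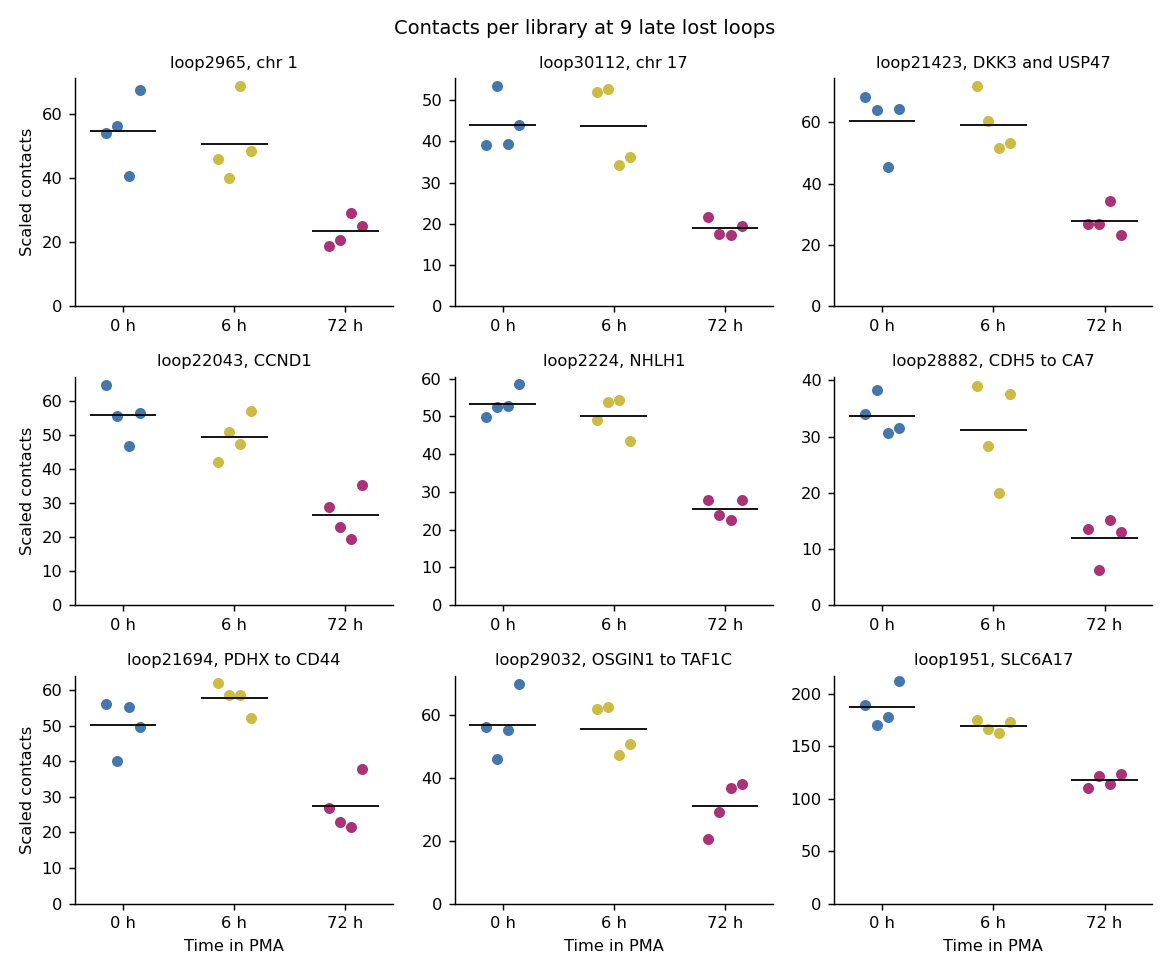
Scaled contacts per library (vertical axes, each from 0) at 0 h, 6 h and 72 h for 9 late lost loops, each point 1 library and each line the mean of 4 libraries. In every panel the 72 h points lie below all others, as the rule requires; the ratio of 72 h to 0 h ranges from 0.355 in the CDH5 to CA7 loop to 0.627 in the SLC6A17 loop.

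The remaining loops among the 12 with the lowest ratios lay between 0.509 and 0.522. They included loop29597 on chromosome 17, whose anchor chr17:35740001-35750000 held an end of GAS2L2, which encodes a linker of actin and microtubules, and of RASL10B, which encodes a Ras-like small GTPase. It held 36.9, 46.8, 39.3 and 34.9 at 0 h, 33.9, 56.6, 51.5 and 38.7 at 6 h and 19.8, 22.8, 17.2 and 22.2 at 72 h. Its 6 h libraries covered a wider range than those of 0 h and their mean was 1.14 times that of 0 h. The start of GPR179, which encodes an orphan receptor of the retina, lay in an anchor of loop29617. This loop held 69.6, 69.7, 79.8 and 66.4 at 0 h, 62.9, 59.5, 74.3 and 72.6 at 6 h and 34.2, 40.4, 40.9 and 33.3 at 72 h. Others were loop3007 on chromosome 1, loop32341 on chromosome 22 with 13 genes between its anchors and loop3800 on chromosome 2, none with a gene end in an anchor.

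In 57 members, or 12.6%, a protein-coding gene ended in both anchors. Of those with a mean of at least 20 raw contacts, the deepest fall was in loop28882. It joined an end of CDH5, the gene of the endothelial cadherin, at chr16:66400001-66410000 to an end of CA7, a carbonic anhydrase gene, at chr16:66850001-66860000. None of the gene starts used here, a set that is not complete, lay in either anchor. Its libraries held 34.1, 38.2, 30.7 and 31.5 at 0 h, 38.9, 28.3, 20.01 and 37.5 at 6 h and 13.5, 6.22, 15.1 and 12.9 at 72 h. The 6 h libraries spread from 20.01 to 38.9, and the lowest 72 h library was replicate 2. The mean was 34.5 ± 3.56 (SD, n = 3) at 0 h and 11.2 ± 4.35 (SD, n = 3) at 72 h, the ratio of the 4-library means was 0.355, and 12 genes lay between the anchors.

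The loop between an end of PDHX, a gene of the pyruvate dehydrogenase complex, and an end of CD44, the gene of the hyaluronan receptor, was loop21694 (chr11:34990001-35000000 and chr11:35230001-35240000). This loop too had none of the gene starts used here in its anchors. It held 56.1, 40.1, 55.2 and 49.6 at 0 h, 61.9, 58.6, 58.6 and 52.00 at 6 h and 26.97, 22.8, 21.5 and 37.9 at 72 h. Of the members it had the highest 6 h ratio, 1.15, and at 72 h its ratio to 0 h was 0.543, with replicate 4 the highest of that time. Of the other 3 kept loops at an end of CD44, loop21691 (edgeR log2 fold change -0.43, adjusted p 0.0307) and loop21697 (-0.62, adjusted p 0.00559) were lost at 72 h, and loop21698 was gained (0.71, adjusted p 2.48e-05).

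OSGIN1 and TAF1C, whose promoters are printed above, were joined by loop29032 (chr16:83950001-83960000 and chr16:84180001-84190000). The libraries held 56.1, 45.8, 55.2 and 69.8 at 0 h, 61.9, 62.5, 47.2 and 50.8 at 6 h and 20.7, 29.03, 36.6 and 37.9 at 72 h. At 72 h replicates 1 and 2 lay below replicates 3 and 4, and the ratio was 0.547. GLYCTK and SEMA3G were joined by loop5520 (chr3:52290001-52300000 and chr3:52440001-52450000), which held 35.5, 42.02, 47.9 and 25.9 at 0 h, 41.9, 34.2, 28.6 and 29.02 at 6 h and 18.9, 24.9, 21.5 and 18.5 at 72 h. The lowest 0 h library, replicate 4, was only just above the highest 72 h library, so the groups here came close to overlapping. In loop16043, SPDYE1, a gene of the Speedy cell cycle family with near-identical copies elsewhere, faced YKT6, and the contacts were 41.2, 41.1, 36.8 and 32.7 at 0 h, 45.9, 28.3, 42.9 and 37.5 at 6 h and 18.9, 21.8, 25.8 and 21.3 at 72 h. The last of these loops named here was loop30036, between an end of PRPSAP1, a gene of nucleotide precursor synthesis, and an end of RHBDF2, which encodes an inactive rhomboid protein. It held 69.6, 81.2, 58.9 and 51.8 at 0 h, 60.9, 55.6, 54.3 and 58.04 at 6 h and 34.2, 35.3, 36.6 and 47.1 at 72 h, a ratio of 0.586.

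By the median, members with more contacts fell by less in proportion, under a rule that used these same contacts. The strongest, loop32357 on chromosome 22, spanned 40 kb between chr22:20410001-20420000 and chr22:20450001-20460000 and held 701, 696, 696 and 649 scaled contacts at 0 h, 598, 666, 643 and 665 at 6 h and 515, 531, 466 and 491 at 72 h. Its mean was 689.7 ± 15.2 (SD, n = 3) at 0 h and 508 ± 26.96 (SD, n = 3) at 72 h, and the ratio of the 4-library means was 0.731. An end of NEK2, the gene of a centrosome kinase, lay in an anchor of loop2849, which held 197, 211, 200.1 and 180.2 at 0 h, 199, 174, 190.1 and 209 at 6 h and 130.3, 152, 144 and 147 at 72 h. The libraries of 0 h and 6 h were interleaved there, and the ratio at 72 h was 0.728. SLC6A17, a neuronal amino acid transporter gene, had an end in an anchor of loop1951 (chr1:110200001-110210000). With 189.5, 170.0, 178 and 212 at 0 h, 175, 166, 163 and 173 at 6 h and 111, 121, 114 and 124 at 72 h, loop1951 had the lowest ratio of these strong members, 0.627. An end of HAP1, the gene of huntingtin-associated protein, and an end of P3H4, a gene of collagen modification, were joined by loop29662, with 187, 185, 193 and 182 at 0 h, 197, 153, 189 and 189.9 at 6 h and 141, 148, 128 and 131 at 72 h. Over 4 classes of kept loops of about equal size, ordered by mean raw count, members made up 0.653%, 1.29%, 2.79% and 3.17%. Their median ratio rose along these classes from 0.529 to 0.615, 0.648 and 0.698. The rule limits the ratio and requires every 72 h library to be lowest, which noisy low counts meet less easily. The order by count is therefore not read as a trait of strong loops.

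The shortest member, loop21884, spanned 30 kb on chromosome 11 to an anchor with an end of MED19, a Mediator subunit gene, and of ZDHHC5, a palmitoyltransferase gene. It held 185, 155, 183 and 155 at 0 h, 159.7, 157, 137 and 162 at 6 h and 128, 112, 105 and 128 at 72 h. The longest, loop29587 on chromosome 17, spanned 1100 kb and was near the count minimum, with 13.5, 10.5, 9.82 and 10.1 at 0 h, 8.98, 20.5, 10.01 and 8.46 at 6 h and 8.09, 6.22, 6.45 and 8.32 at 72 h. One 6 h library stood above all others there, and the 72 h libraries lay only just below the rest.

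Of the 451 members, 35 shared an anchor with another member, and 18 anchors were shared, each by 2 members. NHLH1 lay at one of them: besides loop2224, it ended loop2225, which reached CASQ1, the gene of a calcium-binding protein of muscle, at chr1:160190001-160200000. This second loop held 74.5, 73.5, 60.1 and 69.8 at 0 h, 66.9, 73.2, 70.04 and 59.3 at 6 h and 36.9, 40.4, 44.1 and 39.8 at 72 h, a ratio of 0.580. The rule itself required the 72 h libraries to be lowest in both loops at NHLH1. TMEM121 on chromosome 14 lay at an anchor shared by loop27476, which reached BRF1, an RNA polymerase III factor gene, and loop27478. The first was weak, with 12.8, 8.59, 15.96 and 16.9 at 0 h, 13.97, 16.6, 10.01 and 12.1 at 6 h and 5.39, 7.26, 7.53 and 7.40 at 72 h. The second was stronger, with 76.7, 58.3, 58.9 and 67.6 at 0 h, 70.9, 67.4, 52.9 and 58.04 at 6 h and 35.1, 43.6, 50.6 and 45.3 at 72 h. At GPR179, loop29616 reached ARHGAP23 over 70 kb, and held 168, 138, 134 and 139 at 0 h, 131, 142, 122 and 135 at 6 h and 111, 94.4, 97.9 and 90.6 at 72 h. Its ratio of 0.683 was nearer the limit than the 0.521 of loop29617 from the same anchor. All 18 shared anchors tied at 2 members, and these 3 were taken by the lowest mean ratio, an order chosen after the values were seen.

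Members lay close together in places. When members within 100 kb of each other were joined, they formed 371 runs, of which 311 were a single member and 60 held 140 members. The largest run covered chr15:74370001-75690000 with 8 members. Their anchors held ends of UBL7, of CLK3, a kinase gene of splicing control, of EDC3, an mRNA decapping gene, of PPCDC, SCAMP5 and MAN2C1, and of SIN3A, the gene of a corepressor scaffold. The ratios ran from 0.568 to 0.715, and of the 13 other kept loops in this interval 9 were called lost at 72 h and 0 gained, beside 16.9% lost and 16.7% gained over all loops tested. A run of 4 members at chr19:39120001-39740000 had ends of PAK4, LRFN1, GMFG, PLEKHG2, SUPT5H (an elongation factor gene), EID2, EID2B and CLC at its anchors, with ratios of 0.648 to 0.725. Another 4 lay at chr6:42250001-43150000, with PRPH2, RPL7L1, GNMT and PEX6, and 4 at chr22:29400001-30500000, with SEC14L4, OSM (a cytokine gene), CASTOR1 and RNF215. Of the other kept loops, 4 of 7 on chromosome 19, 1 of 7 on chromosome 6 and 2 of 11 on chromosome 22 were called lost, and 0 gained in each of these 3 runs; the shares lost on chromosomes 6 and 22 are near that of all loops.

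The lists of genes examined had few kept loops each, and the counts of members at them stand beside a share of 1.98% of all kept loops. Of 32 erythroid genes, 16 had an end in an anchor of 23 kept loops, 13 of which were called lost and 1 gained at 72 h. Over all loops tested, 16.9% were lost and 16.7% gained. These calls compare 72 h with 0 h and do not separate early from late falls. STAG2, the gene of a cohesin subunit, started in an anchor of loop33656 on chromosome X, the member at 1 of 16 kept loops with genes of the loop machinery (5 lost and 0 gained). It held 41.2, 51.6, 52.8 and 46.2 at 0 h, 53.9, 48.8, 38.6 and 56.8 at 6 h and 30.6, 35.3, 29.05 and 37.9 at 72 h, a ratio of 0.693. CCND1 was the gene of the growth and cell cycle list (38 kept loops, 13 lost and 5 gained), and CD44 that of the chemokine and adhesion list (15 kept loops, 7 lost and 1 gained). Of the other 3 kept loops at CCND1, loop22054 was gained at 72 h (edgeR log2 fold change 0.70, adjusted p 3.45e-05), and loop22051 (-0.27, adjusted p 0.174) and loop22053 (0.31, adjusted p 0.204) were not called. No member had an end of a gene of heme synthesis (11 kept loops, 4 lost and 1 gained) or of megakaryocytes and platelets (7, 3 lost and 3 gained). The same held for AP-1 and the early response (22, 4 lost and 4 gained) and the blood transcription factors (28, 9 lost and 4 gained). In all, 332 protein-coding genes had an end in one of the 884 anchors of members.

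Several features that the rule did not use set the members beside other kept loops, here as a description with no test over regions. Members had a median length of 210 kb (middle range 140 to 330 kb), against 280 kb over all kept loops. They had a median mean raw count of 47.0 against 31.2, and kept loops in the same range of counts had a median length of 200 kb. An end of a protein-coding gene lay in at least 1 anchor of 220 members, or 48.8%, against 35.9% of kept loops. Between the anchors, 78 members, or 17.3%, had no protein-coding gene, against 40.0% of kept loops. The median member held 10.4 genes per Mb inside, and the median kept loop 2.78.

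The same features were read in loops found by a mirrored rule and in loops lost early. Late gained loops, flat at 6 h with all 72 h libraries above the others and a 72 h mean at least 1.33 times that of 0 h, numbered 903 (3.96% of kept loops). Of these, 27.4% had a gene end in an anchor and 56.6% had no gene inside. Early lost loops, at 0.75 times the 0 h mean or less at both 6 h and 72 h with no overlap, numbered 295 (1.29%). They had a gene end at an anchor in 45.8%, close to the late lost loops, but 55.6% had no gene inside, and their median length was 140 kb. Among loops of 140 to 330 kb, no gene lay inside 10.5% of late lost, 43.3% of kept, 64.2% of late gained and 42.0% of early lost loops. Without chromosomes 17, 19 and 22 the values were 18.9%, 40.8%, 56.5% and 56.1%.

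Sorted by the genes inside, the members rose from 0.854% of the 9129 kept loops with no gene to 1.63% of the 8952 with up to 10 genes per Mb and 4.82% of the 4714 with more. Late gained loops ran the other way, from 5.60% to 3.92% and 0.87%. Early lost loops had no such order, at 1.80%, 0.726% and 1.40%. The kept loops as a whole moved with gene density too: their median ratio of 72 h to 0 h was 1.09, 1.09 and 0.894 in these classes, and at 6 h it was 1.01, 1.07 and 1.03. The part of gene density in the members' fall was not tested.

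**Figure D3:**
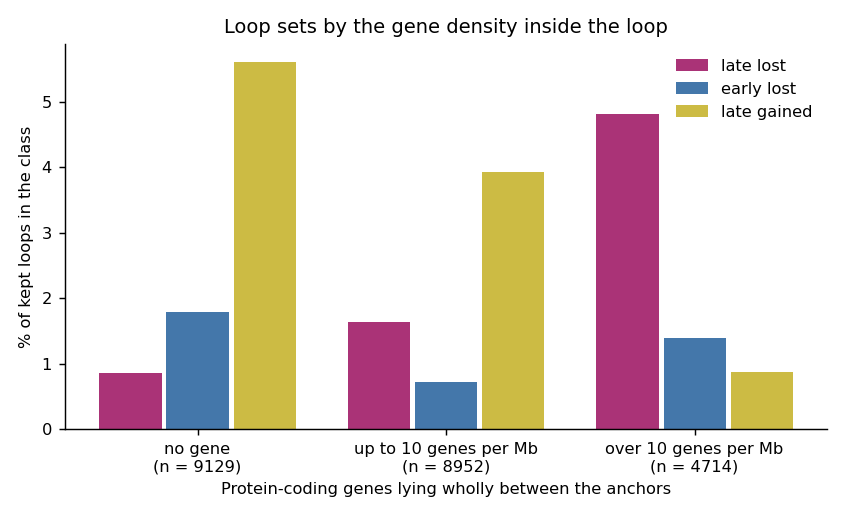
Percent of kept loops (vertical axis) that were late lost, early lost or late gained in 3 classes of kept loops by the number of protein-coding genes wholly between the anchors per Mb (horizontal axis, n below each class). Late lost loops go from 0.854% to 4.82% of the class as gene density rises, and late gained loops from 5.60% to 0.87%.

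By chromosome, members made up 5.45% of the kept loops on chromosome 19 (35 members), 4.54% on chromosome 17 (38), 3.88% on chromosome 22 (13) and 3.65% on chromosome 15 (27). The lowest shares were 0.772% on chromosome 13 (4 members) and 0.894% on chromosome 5 (12). Chromosome 1 had the most members, 57, at 2.57%. On chromosomes 19 and 17 the median ratio over all kept loops was 0.889 and 0.898, the lowest of the 23 chromosomes, and on chromosome 15 it was 1.03. Of the 27 members on chromosome 15, 8 belonged to the run at UBL7, CLK3 and SIN3A.

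**Figure D4:**
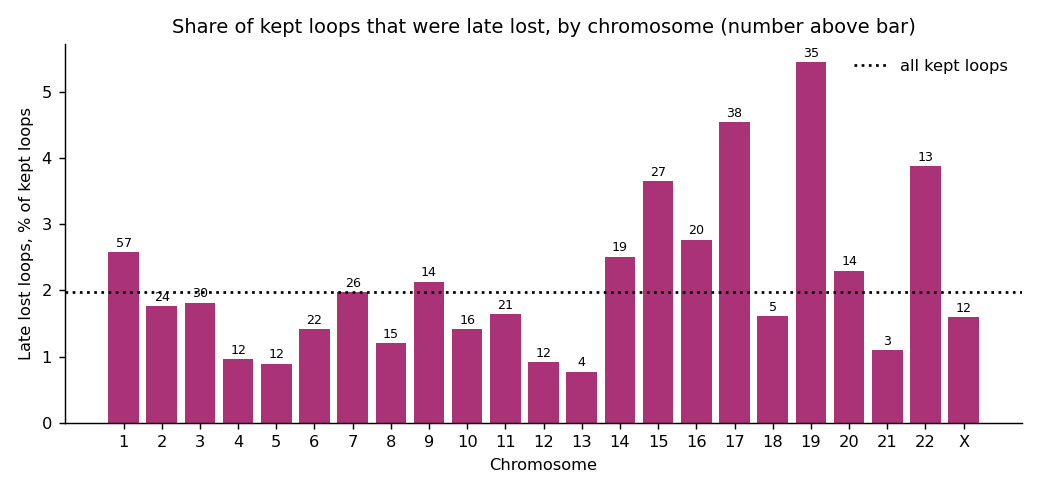
Late lost loops as a percent of the kept loops of each chromosome (vertical axis), with the number of members above each bar and the share over all kept loops (1.98%) as a dotted line. Chromosomes 19, 17, 22 and 15 stand highest, between 3.65% and 5.45%.

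The loops that share an anchor with a member, but are not members, were not used to choose the members, and they show the same anchors in other contacts. There were 780 such partner loops, at the anchors of 352 members, and 96 members shared no anchor with another kept loop. At 72 h against 0 h, 242 partners were lost, or 31.0%, and 51 were gained, or 6.54% (edgeR, adjusted p under 0.05), beside 16.9% lost and 16.7% gained over all loops tested. Their median log2 fold change was -0.22, against 0.00 over all kept loops. Without the 63 partners whose 2 anchors both lay within 50 kb of those of a member, 209 of 717 were lost, or 29.1%. At least 1 partner called lost was found at 182 members. Against 6 h, 148 partners were lost at 72 h and 35 gained, beside 9.81% and 10.7% of all loops tested. At 6 h against 0 h 45 were lost and 20 gained, beside 4.07% and 2.34%. Loops that met the whole rule are left out of these counts, so the counts hold only the losses that missed it.

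The contacts of all partners together were lowest at 72 h. They made up 4.57% to 4.81% of the kept contacts in the 0 h libraries, 4.48% to 4.73% at 6 h and 4.14% to 4.30% at 72 h, with the 72 h libraries below all others. The mean was 4.70% ± 0.119 (SD, n = 3) at 0 h, 4.62% ± 0.107 (SD, n = 4) at 6 h and 4.215% ± 0.0676 (SD, n = 3) at 72 h. Over the 4 libraries of each time, 72 h was 0.48 percentage points below 0 h (two-sided exact permutation test, p 0.0286, adjusted 0.0429 over 3 comparisons) and 0.39 below 6 h (exact permutation p 0.0286, adjusted 0.0429), where 0.0286 is the smallest p this design allows. The 6 h libraries were not distinguishable from 0 h (exact permutation p 0.286). With replicates 3 and 4 as 1 sample at 72 h the exact permutation p for 72 h against 0 h was 0.0571, and with them as 1 sample at both times it was 0.10, each again the smallest possible, so the call does not hold at this number of samples.

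Kept loops that lay inside a member without sharing its anchors were lost at 72 h in 195 of 506 cases, or 38.5%, and gained in 35. Of these, 64 were already lost at 6 h, or 12.6%, beside 4.07% of all loops tested. Loops that enclosed a member were lost in 70 of 418 cases, or 16.7%, and gained in 35, or 8.37%. Both counts compare 72 h with 0 h. Against 6 h, 76 of the 506 loops inside a member were lost, or 15.02%, and 33 gained. Around a member, 69 of 418 were lost against 6 h, or 16.5%, and 10 gained. The higher share of losses inside than around a member was thus seen against 0 h and not against 6 h. In the 20633 tested loops apart from any member, 15.02% were lost and 17.7% gained at 72 h against 0 h. Partners also differed from these loops in gene density, since 40.5% of partners and 18.8% of the loops apart had over 10 genes per Mb inside. Within that class 38.6% of partners and 26.3% of the loops apart were lost, and with no gene inside 32.4% and 14.8%. These are counts over regions and carry no test of the difference.

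**Figure D5:**
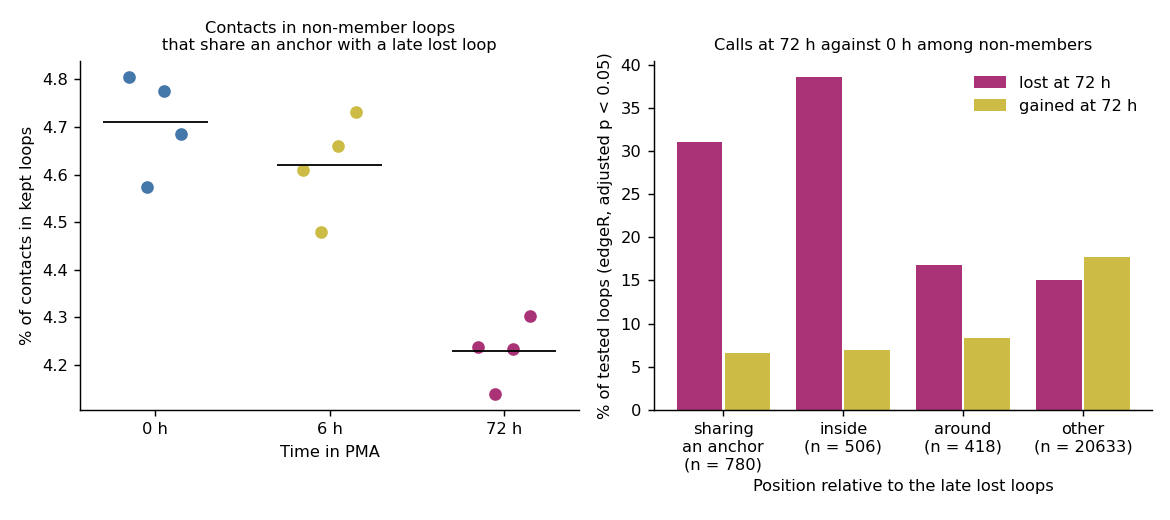
Left, the percent of kept contacts per library in the 780 partner loops that share an anchor with a late lost loop (vertical axis, not from 0), each point 1 library and each line the mean of 4; the 72 h libraries lie between 4.14% and 4.30%, below all others. Right, the percent of tested non-member loops called lost or gained at 72 h against 0 h by position relative to the members, with n under each group; lost loops make up 31.0% of partners, 38.5% of loops inside a member, 16.7% of loops around one and 15.02% of the others.

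The partner with the smallest adjusted p among those lost was loop28147 on chromosome 15, which held 131, 138, 120.3 and 117 at 0 h, 105, 90.8, 95.8 and 106 at 6 h and 48.5, 45.6, 49.5 and 43.5 at 72 h (edgeR log2 fold change -1.51, SE 0.127, adjusted p 5.60e-21). It had begun to fall at 6 h, with a ratio of 0.784. An end of HEATR4 lay at loop27066, with 90.9, 74.5, 71.2 and 73.2 at 0 h, 45.9, 34.2, 38.6 and 55.6 at 6 h and 30.6, 22.8, 27.97 and 29.6 at 72 h, where most of the fall was present at 6 h. The third, loop31110 with an end of SMIM47, held 62.5, 70.7, 57.7 and 77.7 at 0 h and 9.89, 31.1, 24.7 and 26.8 at 72 h, and 72 h replicate 1 was far below the other 72 h libraries. Gains stood at anchors of members too. SMYD2, a lysine methyltransferase gene, had an end at loop2886, which rose from 57.5, 51.6, 56.5 and 52.9 at 0 h and 62.9, 51.7, 62.9 and 65.3 at 6 h to 114, 128, 117 and 123 at 72 h (edgeR log2 fold change 1.08, SE 0.123, adjusted p 5.63e-13). On chromosome 22, loop32347 rose from 232 ± 7.30 (SD, n = 3) at 0 h to 354 ± 18.1 (SD, n = 3) at 72 h, and on chromosome 10, loop20971 from 56.6 ± 10.2 (SD, n = 3) to 105 ± 18.3 (SD, n = 3).

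In the authors' deposited table, 125 of the members were classed as lost, 326 as static and 0 as gained, beside 2.21% of the kept loops classed as lost. The members made up 24.9% of the loops of that class, and the class made up 27.7% of the members. The authors' deposited table gave a log2 fold change for 433 members, with a median of -0.50 at 72 h and -0.01 at 6 h. The deposited adjusted p was under 0.05 for 280. It was read under the 6 h header and taken as a value over the time points, so it is assigned to neither 6 h nor 72 h. Members in the class lost had a median ratio of 0.563, at most 0.642, and members in the class static one of 0.684. All of the 12 members with the lowest ratios named above were in the class lost, and the loops of STAG2 and NEK2 were static.

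Promoter sequences of RefSeq (GRCh38.p14) whose gene start lay in a member anchor were searched for letters of 5 motifs in the 300 bases around the gene start, on both strands. Of 157 such promoters, 17 held the ETS letters CCGGAAGT, or 10.8%, against 5.82% of the 4779 promoters at anchors of kept loops and 5.34% of all 22199. The core of the CTCF motif was found in 7, or 4.46%, against 3.06% and 2.52%. GC boxes (GGGCGG) were found in 63.1% against 61.8% and 56.3%, and the GATA letters AGATAA in 8.92% against 7.30% and 7.91%. The AP-1 letters TGANTCA, 1 of which is in the OSGIN1 promoter above, were found in 4, or 2.55%, against 5.36% and 6.15%. At anchors of late gained loops, 168 promoters held the ETS letters in 4.76%, the CTCF core in 1.19% and the AP-1 letters in 7.74%. The counts behind the member shares are small, the promoters were not tested for binding, and a match to the letters is not a site.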

How the data were processed

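Per the file headers, the deposited table lists raw counts of contacts per loop for 30 technical replicates, together with log2 fold changes, adjusted p-values and a class per loop, all from the authors. Anchor positions, of another kind than these values, start from 0 in the deposited table and are given from 1. The submitters' processing notes name Juicer 1.5.6, DESeq2 and hg38 without their roles; the loop caller and how the deposited log2 values were made are not given in the sources used here. All count columns were used (0 unused). No background is subtracted from a count.

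Technical replicates were summed into 12 libraries. The members and the gene lists were chosen with earlier results of these data known. Tests across loops used edgeR 4.0.16 in R 4.3.3 on the counts of all 12 libraries without covariate (filterByExpr with a minimum count of 10 and a minimum total of 15, TMM, quasi-likelihood, Benjamini-Hochberg, threshold 0.05), checked on simulated counts; DESeq2 1.42.0 was an alternative. Library shares were compared by two-sided exact permutation tests (SciPy 1.17.1). The labels do not say that biological replicates were separate cultures, so p-values measure the spread between these samples. Replicate pairs were compared by a chi-square test over loops: replicates 3 and 4 gave p 0.438 at 72 h, 0.155 at 0 h and 0.0490 at 6 h, and the other pairs differed. The fits kept them as separate libraries.

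Genes are the protein-coding genes of a RefSeq table (GRCh38.p14) with an end in an anchor; the promoter table is not complete. Named loops are the 12 members with the lowest 72 h ratio among those with a mean raw count of at least 30, the 6 strongest at 0 h, those at list genes, the 8 lowest among those with genes at both anchors and a mean raw count of at least 20, the loops of the 3 most shared anchors, the shortest and longest, those nearest the thresholds, and the 3 partners of smallest adjusted p in each direction; some are left to a range, and 1 is not reported here. Promoters are those whose gene start lies in an anchor. Alternatives were other scalings, filters, limits and bands, a correction for loop length (loess, span 0.3), a replicate block, replicates 1 and 2 alone, replicates 3 and 4 alone, replicates 3 and 4 summed, and leaving out each library. The lists were erythroid, heme synthesis, megakaryocyte and platelet, AP-1 and early response, blood transcription factors, growth and cell cycle, loop machinery, and chemokine and adhesion genes.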

Additional observations from a re-analysis of the deposited data

Results flagged for a closer look

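At loop29587, the longest member, 6 h replicate 2 held 20.5 scaled contacts, while the other 6 h libraries held 8.46 to 10.0; 44 groups of 4 libraries were examined in this way, and chance flags about 1 in 20 groups.

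At 6 loops that share an anchor with a member, the change at 72 h differed from the change at 6 h (edgeR quasi-likelihood test of 72 h against 6 h, adjusted over all loops). The log2 difference was -1.10 at loop28147 (adjusted p 1.08e-10), -0.65 at loop27066 (adjusted p 0.0062) and -1.14 at loop31110 (adjusted p 1.85e-06). It was 0.98 at loop2886 (adjusted p 3.77e-10), 0.34 at loop32347 (adjusted p 0.00153) and 0.45 at loop20971 (adjusted p 0.00632).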

How the results depend on the processing

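The rule gave 451 members. It gave 324 to 637 under other scalings, count minimums, limits and bands and with the 72 h replicates 3 and 4 summed, and 480 to 640 without 1 library, of which 378 to 433 were members of the main set. With replicates 3 and 4 summed at every time it gave 876 loops (401 shared with the 451), with replicates 1 and 2 alone 1319 (279 shared), and with replicates 3 and 4 alone 963 (274 shared); with fewer libraries the condition on every library is easier to meet.

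Over all loops, the calls at 72 h against 0 h, 72 h against 6 h and 6 h against 0 h were 8105, 4945 and 1546. DESeq2 gave 4977, 1979 and 438, an adjusted p under 0.01 gave 5210, 2421 and 545, replicates 1 and 2 alone 4947, 2400 and 526, and replicates 3 and 4 alone 3973, 1690 and 213. Without 1 library they ranged from 6554 to 8477, 3676 to 5115 and 709 to 1556; the last was 709 without 0 h replicate 1 and 868 without 6 h replicate 2. The length correction gave 995 calls at 6 h and called 1 member there, where the other alternatives called 0. Members called lost at 72 h numbered 291 with replicates 3 and 4 alone and 426 to 443 without 1 library. Partners called lost, 242 in the main analysis, were 155 with DESeq2, 155 at an adjusted p under 0.01, 149 with replicates 1 and 2 alone, 124 with replicates 3 and 4 alone, and 194 to 259 without 1 library. The cause was not tested.

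The partners' share differed by -0.495 percentage points with the 72 h replicates 3 and 4 as 1 sample (exact permutation p 0.0571). It differed by -0.488 with them as 1 sample at 0 h and 72 h (exact permutation p 0.10). Without 1 library it differed by -0.527 to -0.450 (exact permutation p 0.0571, the smallest possible). The difference was negative in every alternative. The balance of calls over all loops did change with total count scaling in the fit. At 6 h against 0 h, 769 were gained and 731 lost, where the main fit gave 565 and 981. At 72 h against 0 h, 4667 were gained and 3388 lost, where the main fit gave 4024 and 4081. The shares lost and gained over all loops therefore depend on the scaling.

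With the replicate number as a block, the calls were 8560, 5472 and 1938, with 441 members and 260 partners lost at 72 h and 0 members called at 6 h. The main fit did not use the numbers as pairs. Correlations of deviations between samples of the same number were low, at 0.0165 to 0.158. For replicate 4 between 0 h and 72 h the correlation with another number was higher (0.0384). In all other comparisons the same number gave the highest value, such as 0.158 against 0.0276 for replicate 2 between 0 h and 6 h. A weak pairing by number is therefore possible, and the block fit allows for it. Depth limited what could be seen at 6 h, as the intervals above show.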
